A study of Mus musculus with 2 samples.

Results

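Complement is a set of plasma and cell-surface proteins that marks microbes, immune complexes and dying cells for removal. Its classical arm starts when C1q binds a target, its alternative arm amplifies C3 cleavage through factor B and properdin, and the peptides C3a and C5a that are released attract and activate myeloid cells through their own receptors. Most plasma complement comes from the liver, but macrophages are a main source of C1q and also make properdin, while host cells protect themselves with membrane regulators such as CD59. The genes described here are 9 complement components, receptors and regulators: C1qa, C1qb, C1qc, C3, Cfb, Cfp, C3ar1, C5ar1 and Cd59a. They were chosen by name, and a gene's value is that of the row with its symbol alone and, where there were several, the highest mean. Of the 9, 8 had a row, out of 19871 genes in all, and C3 was not analysed here.

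RNA came from bone marrow derived macrophages of mice aged 8 weeks, per the labels, grown in medium conditioned by L929 fibroblasts, which supplies macrophage colony-stimulating factor. There were 2 samples, 1 labelled control and 1 labelled beta-catenin deficient, each with total RNA on 1 Affymetrix 1.0 ST array, which reads probes along the whole transcript. The sources used here name no strain, deleted exon or Cre driver, and they do not say how many animals were behind a culture. With 1 array per group there is no spread between replicates and no test. Higher and lower therefore describe these 2 arrays, and no difference below could be set against replicate error.

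Values are RMA levels on a log2 scale, and each difference is the array labelled deficient minus control. A gene was counted as higher or lower when its difference was 0.585 or more in size (1.5-fold) and the brighter of its values reached 7.28. This floor, the median value over both arrays, is a convention and no detection call. It left 10658 genes, of which 7.54% were counted as higher and 8.81% as lower. Their median difference was -0.08, and over all 19871 genes it was -0.15, so that small negative differences lie near the middle of the table. Ctnnb1, the gene of beta-catenin, was 11.3 in control and 11.4 in the array labelled deficient. Probes outside the deleted exons, which are not given, check nothing about the deletion. Since this level was not lower, each direction below rests on the label. Axin2, a feedback target of beta-catenin, was 7.61 in control and 5.97 in the other array.

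Of the 7 complement genes that reached the floor, 1 was higher (C1qb), 1 was lower (Cd59a) and 5 lay within 1.5-fold. With the background shares at 7.54% and 8.81%, 1 gene in each direction sets nothing apart from other genes. At 2-fold the members' counts were 0 higher and 1 lower, where 2.96% of all genes at the floor were higher and 1.59% lower. Without the floor Cfb joins, with 2 of 8 members higher and 1 lower, where 4.98% of all 19871 genes were higher and 13.0% lower. The median difference of the 7 was 0.02, beside -0.08 over all genes at the floor. The differences of the 8 genes with a row spread over 1.86 on the log2 scale, from Cd59a to C1qb, and 3 of the 8 were below 0. Among the 7 at the floor, the nearest values on either side of the upper 1.5-fold limit were those of C1qb, at 0.78, and C3ar1, at 0.45. Cfb, below the floor, was nearer to it at 0.68.

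**Figure D1:**
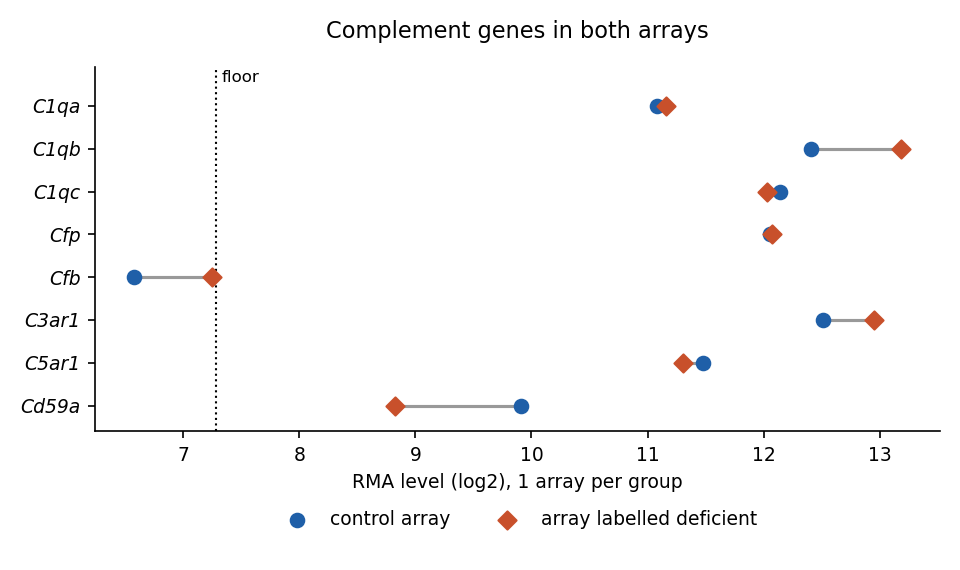
RMA level (log2, horizontal axis) of each of the 8 complement genes in the control array (circles) and the array labelled deficient (diamonds), with 1 array per group and no error bars; the dotted line is the floor of 7.28. C1qb lies 0.78 further right in the array labelled deficient and Cd59a 1.09 further left, while Cfb stays left of the floor in both. Levels of different genes come from different probes and are not comparable.

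C1q is built from A, B and C chains in equal numbers, each encoded by its own gene, and it starts the classical pathway by binding antibody or apoptotic material. C1qb, the B chain, was 12.4 in control and 13.2 in the array labelled deficient, a difference of 0.78 or 1.71-fold. Among the 10658 genes at the floor, 503 (4.72%) had a larger positive difference. C1qa, the A chain, was 11.1 in control and 11.2 in the other array, a difference of 0.08. C1qc, the C chain, was 12.1 in control and 12.0 in the other array, a difference of -0.11 that became 0.04 when the values were centred on all genes. The chains thus had differences of unlike size in these arrays, each read by 1 row and with no replicate error to set this against. The difference of C1qb was larger than that of C1qa by 0.69 and larger than that of C1qc by 0.88. All 3 chains were bright, with values from 11.1 for C1qa in control to 13.2 for C1qb in the other array. At mean levels from 12 to 13, where C1qb lies, 5.51% of 236 genes were past the 1.5-fold limit upward and 1.27% downward.

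The C1q genes lie side by side on chromosome 4 in the RefSeq table of GRCm38.p6, in the order C1qb, C1qc, C1qa, with no other protein-coding gene between them. Their nearest measured neighbours outside the cluster were below the floor in both arrays. Epha8, an ephrin receptor next to C1qa, differed by 0.00, and Lactbl1, on the C1qb side, differed by -0.37, with Ephb2, which was not analysed here, between them. Because neighbouring chains had differences of unlike size, the stretches upstream of C1qb and C1qc are shown. They are from RefSeq (minus strand, GRCm38.p6), up to the first base outside the gene. That of C1qb is chr4:136886201-136886450 (250 bases) and that of C1qc is chr4:136892937-136893164 (228 bases). Capitals mark matches to any of 4 motifs searched on both strands, namely TCAAAG (the TCF/LEF core through which beta-catenin acts), GAGGAA (PU.1, the myeloid ETS factor), GAAANNGAA (interferon regulatory factors) and TTGCNNAA (C/EBP).
C1qb: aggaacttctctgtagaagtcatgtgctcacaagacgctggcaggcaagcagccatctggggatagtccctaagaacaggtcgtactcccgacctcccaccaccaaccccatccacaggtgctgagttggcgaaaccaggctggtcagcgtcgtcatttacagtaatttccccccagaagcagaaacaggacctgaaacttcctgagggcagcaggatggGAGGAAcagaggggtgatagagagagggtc
C1qc: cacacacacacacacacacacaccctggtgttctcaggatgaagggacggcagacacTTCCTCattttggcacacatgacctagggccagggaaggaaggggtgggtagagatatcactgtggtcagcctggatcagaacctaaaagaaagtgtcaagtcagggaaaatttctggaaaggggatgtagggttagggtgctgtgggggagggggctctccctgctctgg
Each stretch held a single match, to GAGGAA. In C1qb it ran on the gene's strand, and in C1qc on the opposite strand, where it reads TTCCTC. This hexamer occurred in 23.3% of 32851 mouse promoter windows of 250 bases and in 21.2% of windows cut to 228 bases. The TCF/LEF core, which 13.8% of the 250-base windows hold, was in neither stretch, and no overlap between motifs arose. These matches describe letters in a window and are no evidence of binding. No C1qa stretch was used here.

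In the alternative pathway, Cfp encodes properdin, which stabilises the C3 convertase and is made by myeloid cells. Cfp was 12.1 in both arrays, with a difference of 0.02, the smallest in size of the 8. Cfb encodes factor B, the protease of the same convertase, and is an interferon-responsive gene. It was 6.57 in control and 7.25 in the array labelled deficient, a difference of 0.68. Both values are under the floor, the higher by 0.03, so Cfb was not counted. C2, the classical pathway homologue of factor B and its neighbour on chromosome 17, was 6.66 in control and 6.74 in the other array, a difference of 0.08. Of the members of this arm with a row, Cfp was thus level between the arrays and Cfb differed by 1.60-fold below the floor.

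The anaphylatoxin receptors were bright in both arrays. C3ar1, the receptor of C3a, was 12.5 in control and 12.95 in the array labelled deficient, a difference of 0.45 or 1.36-fold. It lay inside the 1.5-fold limit as deposited and past it, at 0.60, when the values were centred on all genes. Of the genes at the floor, 11.1% had a larger difference than C3ar1. C5ar1, the receptor through which C5a recruits phagocytes, was 11.5 in control and 11.3 in the other array, a difference of -0.17, which is close to the median of all genes. C5ar2, the second C5a receptor and the neighbour of C5ar1 on chromosome 7, was 9.85 in control and 9.84 in the other array. Its difference of -0.01 turned positive under each of the 3 other scalings, at 0.14 centred, 0.04 after quantile normalization and 0.08 after loess. Neither C5a receptor thus passed the limit, and whether C3ar1 and C5ar1 differ from each other was not tested.

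**Figure D2:**
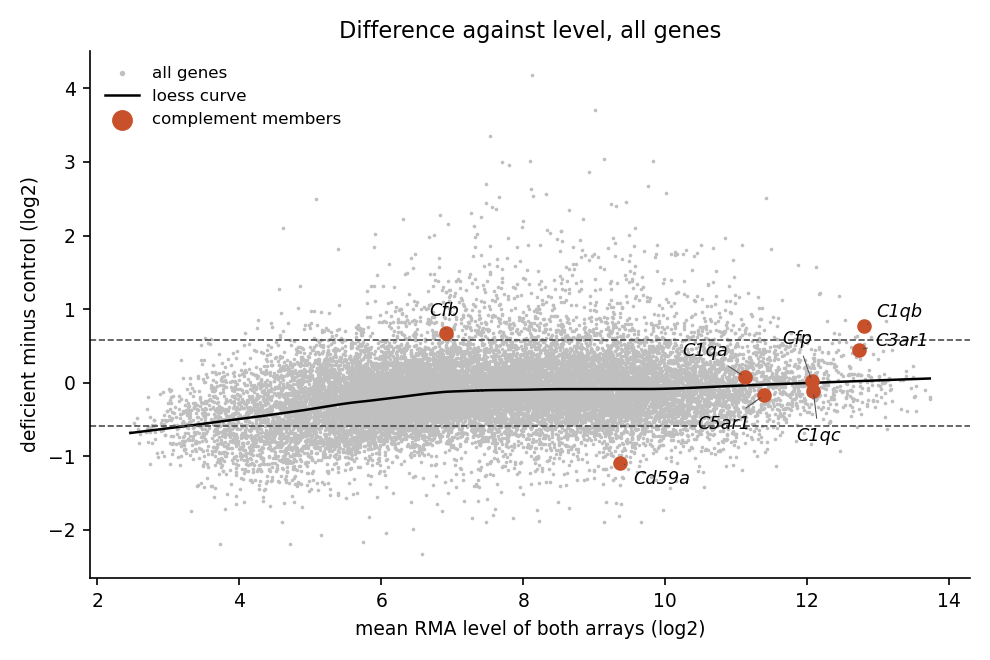
Difference between arrays (deficient minus control, log2, vertical axis) against the mean RMA level of both arrays (log2, horizontal axis) for 19871 genes (grey) and 8 complement genes (red), with a loess curve (black) and dashed lines at 1.5-fold. C1qb, at 0.78, lies above the upper line, as do 5.51% of the genes at mean levels from 12 to 13, Cd59a, at -1.09, lies below the lower line, and Cfb lies among the dimmer genes.

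Cd59a encodes the membrane regulator CD59, which stops the membrane attack complex from assembling in the cell's own membrane. It was the member with the largest difference in size. Cd59a was 9.91 in control and 8.83 in the array labelled deficient, a difference of -1.09, or 2.13-fold lower. Of the 10658 genes at the floor, 121 (1.14%) had a lower value, and 1.59% were at least 2-fold lower. Its tandem paralog Cd59b, which lies next to it on chromosome 2, was 6.41 in control and 6.18 in the other array, below the floor in both. Its difference was -0.24. The close sequence of the paralogs means that their probes may share signal, which was not tested. Cd59a, a surface regulator, was thus lower in the array in which C1qb, an initiator, was higher.

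The stretch upstream of Cd59a is shown because this gene had the largest difference among the members. It is chr2:104095551-104095752 (plus strand, RefSeq, GRCm38.p6, 202 bases), with capitals for the same 4 motifs.
Cd59a: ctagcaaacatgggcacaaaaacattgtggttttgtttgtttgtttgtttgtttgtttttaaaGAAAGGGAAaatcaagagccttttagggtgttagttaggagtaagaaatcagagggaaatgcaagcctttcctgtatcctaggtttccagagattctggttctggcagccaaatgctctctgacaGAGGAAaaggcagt
It held a GAAANNGAA match and a GAGGAA match, both on the gene's strand and without overlap. In windows cut to 202 bases the first occurred in 5.84% of promoters and the second in 18.9%. The TCF/LEF core, in 11.9% of such windows, was not among the letters of this stretch. No factor's binding was measured.

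A wider list of 57 complement genes, the 9 included, places them in the pathway. Of these, 54 had a row and 24 reached the floor. At the floor 7 were higher, 3 lower and 14 within 1.5-fold, against background shares of 7.54% and 8.81%, and the median was 0.19 beside -0.08. Without the 9 there were 17 genes at the floor, with 6 higher and 2 lower. Of the 7 higher genes, 4 (Masp1, Clu, Csmd1 and Vsig4) were below the floor in control. Such genes reached the floor only through the array in which they were high, so the counts of higher genes are no support for a shift of the list. C1rb and Cfd were not analysed here, nor was C3.

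Among genes that initiate the classical and lectin pathways, 2 of 7 at the floor were higher and 0 lower. The background shares were 7.54% higher and 8.81% lower. Besides C1qb the higher gene was Masp1, a protease that pairs with mannose-binding lectin and ficolins. Masp1 was 6.79 in control, below the floor, and 8.46 in the array labelled deficient (1.68), through which alone it reached the floor. Colec12, a scavenger collectin, just missed the limit at 0.50, from 9.37 to 9.87. After loess Colec12 was just past the limit, at 0.588. The C1r and C1s proteases, which complete the C1 complex with C1q, were below the floor in both arrays where a row named 1 of them alone. C1ra was 5.91 in control and 6.54 in the other array, and C1s1 was 4.56 in control and 5.53 in the other array. The terminal pathway genes Hc, C6, C7, C8a, C8b, C8g and C9 had 0 of 7 at the floor, with levels between 4.38 and 7.18.

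Regulators went both ways. Of 5 at the floor, 3 were higher, 2 lower and 0 within 1.5-fold, beside background shares of 7.54% higher and 8.81% lower. Clu and Csmd1 were below the floor in control and reached it only through the array in which they were high. Without a floor, the median difference of the 15 regulators with a row was -0.24. Serping1, the C1 inhibitor that blocks C1r and C1s, was 7.61 in control and 10.7 in the array labelled deficient (3.04). Clu, the fluid-phase inhibitor clusterin, was 6.52 in control and 7.39 in the other array (0.87), and Csmd1, a membrane complement inhibitor, was 6.55 in control and 7.71 in the other array (1.15). Cr1l, the rodent membrane regulator Crry that limits C3 convertases, was 9.40 in control and 8.63 in the other array (-0.77). With Cd59a, the regulators that were lower are both membrane proteins of the cell that carries them, while Serping1 and Clu, which were higher, are secreted and Csmd1, also higher, is a membrane protein. Fibroblast and stromal markers were higher in 9 of 11 in the same array, and their part in these values was not tested.

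Receptors at the floor numbered 11, with 2 higher, 1 lower and 8 within 1.5-fold, beside background shares of 7.54% higher and 8.81% lower. Vsig4, the macrophage receptor CRIg for C3b and iC3b, was 7.04 in control and 8.32 in the array labelled deficient (1.28). Itgax, the alpha chain of complement receptor 4, was 9.61 in control and 11.1 in the other array (1.53). Itgam, the alpha chain of complement receptor 3, was 11.9 in control and 11.8 in the other array, and its difference of -0.04 turned to 0.11 when centred. Their shared beta chain Itgb2 differed by 0.26. In 3 rows annotated with both Rpl35 and Itgam, left out because they carry several symbols, the differences ran from 0.41 to 0.47. C1qbp, named for binding C1q and mainly a mitochondrial protein, was 10.5 in control and 9.69 in the other array (-0.78). Of the receptors for C3 fragments at the floor, Vsig4 (below it in control) and Itgax were thus higher, and Itgam, Itgb2 and C3ar1 were within 1.5-fold. Cr2, the receptor for C3d, was below the floor in both arrays, at 6.41 in control and 4.92 in the other array (-1.49). Itgax is also a dendritic cell marker, and that list is given below.

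**Figure D3:**
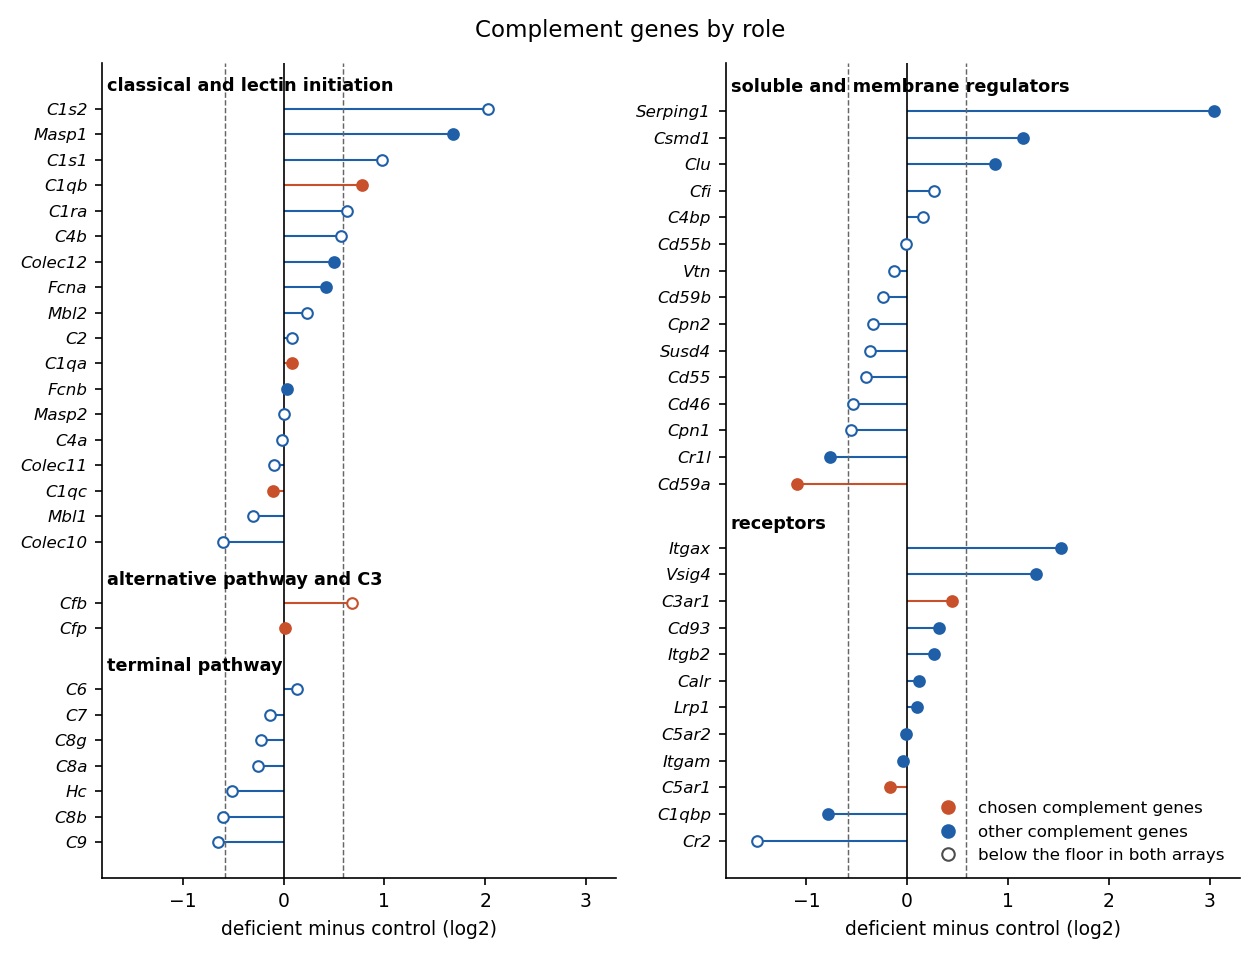
Difference between arrays (deficient minus control, log2, horizontal axis) for 54 complement genes ordered by role; red marks the chosen genes, blue the others, open circles genes below the floor in both arrays, and dashed lines 1.5-fold. Serping1, at 3.04, lies furthest right and Cr2, below the floor, furthest left at -1.49.

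Markers of other cells moved in the same comparison. The labelled cell type had its markers in both arrays: of 12 macrophage markers 11 had a row and all 11 reached the floor, with a mean level of 11.7 in control and 11.9 in the array labelled deficient. Of these 1 was higher (Fcgr1, 0.78, followed by Mrc1, 0.50) and 0 lower, with Lyz2 (-0.38) and Spi1 (-0.17) lowest. Fibroblast and stromal markers were higher in 9 of 11 and lower in 0, from Cxcl12 (2.87) and Pdgfra (2.12) to Fn1 (0.22) and Thy1 (0.18). Their mean levels were 8.69 in control and 9.96 in the other array, over 12 genes that include Lum, below the floor in both. Neutrophil markers were higher in 9 of 12 and lower in 0, with mean levels of 8.56 and 9.71, from Retnlg (2.57) and Mpo (2.22) to Csf3r (-0.06) and Camp (-0.43). Monocyte markers were higher in 4 of 4, with mean levels of 7.83 and 9.67, from Chil3 (2.20) and Plac8 (1.96) to Ccr2 (1.68) and Vcan (1.54). In these lists Pdgfra, Thy1, Retnlg, Prtn3, Ly6g and Chil3 were below the floor in control and reached it only through the other array. Background shares at the floor were 7.54% higher and 8.81% lower. The array labelled deficient thus carried more signal of stromal, granulocyte and monocyte genes at a nearly level macrophage signal.

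Other marker lists follow, beside background shares at the floor of 7.54% higher and 8.81% lower. Dendritic markers were higher in 4 of 5 and lower in 1, from H2-Aa (1.87) and Itgax (1.53) to Cd209a (0.94) and Ccr7 (-0.63), but Cd209a and the other higher marker, Kmo (1.30), were below the floor in control, and the median of all 10 without a floor was -0.17. The defining genes Flt3, Zbtb46, Xcr1, Clec9a and Siglech were below it in both arrays. Of mast cell and basophil markers 3 reached the floor and were higher, Prss34 (2.31), Cpa3 (1.98) and Mcpt8 (0.92), each below it in control. Kit (-0.05), Fcer1a (-0.45) and Ms4a2 (0.11) were below it in both arrays, and the median of all 6 was 0.51 without a floor. Endothelial markers were higher in 1 of 4, Emcn (2.00), followed by Vwf (0.51), Cdh5 (0.44) and Pecam1 (0.38). Emcn, at 5.74, and Pecam1, at 7.06, were below the floor in control. Of T and NK cell markers only Nkg7 (1.09) reached the floor, and of B cell markers only Cd79b (0.32). Nkg7, at 6.43 in control, reached it only through the array in which it was high. The other T and NK cell markers, Cd3e (-0.51), Cd3g (-1.14), Cd2 (-0.67) and Klrb1c (-0.71), were below the floor in both arrays. The median of the T and NK cell list without a floor was -0.67. Hepatocyte markers, from the main source of plasma complement, had 0 of 4 at the floor, with a mean level of 5.91 in control and 5.61 in the other array.

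Stromal cells express Serping1, Clu and the C1r and C1s genes, and neutrophils and monocytes express C3ar1, C5ar1 and Cfp. The part of these cells in the members' values was not tested either, and in bulk RNA more cells of a type and more RNA per cell cannot be told apart. Interferon-stimulated genes were higher in 11 of 13 and lower in 0 (median 0.82), with mean levels of 9.21 and 10.2. NF-kB and acute phase genes were higher in 4 of 11 and lower in 2 (median -0.08), with haptoglobin Hp (1.94) and Ptx3 (1.35) highest and Nfkbia (-0.61) and Tnf (-0.68) lowest. Ptx3, at 6.61 in control, reached the floor only through the array in which it was high. Both counts stand beside background shares of 7.54% higher and 8.81% lower. Cfb, C2 and Serping1 are known interferon-responsive genes, and they differed by 0.68, 0.08 and 3.04. What part the interferon genes have in these values was not tested.

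The scale of the table bears on the small differences. Centring on all genes adds 0.15 to each difference, and it changed the sign of C1qc only among the 8 members. Under the 4 scalings C1qb stayed between 0.75 and 0.93 and Cd59a between -1.09 and -0.94, so both kept their direction and their side of the 1.5-fold limit. The balance of the whole table depended on the scaling: 46.1% of the genes counted at the floor were higher as deposited, and 71.9% when centred, where 11.5% of genes were higher and 4.51% lower. When centred, 2 members were higher (C1qb and C3ar1) and 1 lower.

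**Figure D4:**
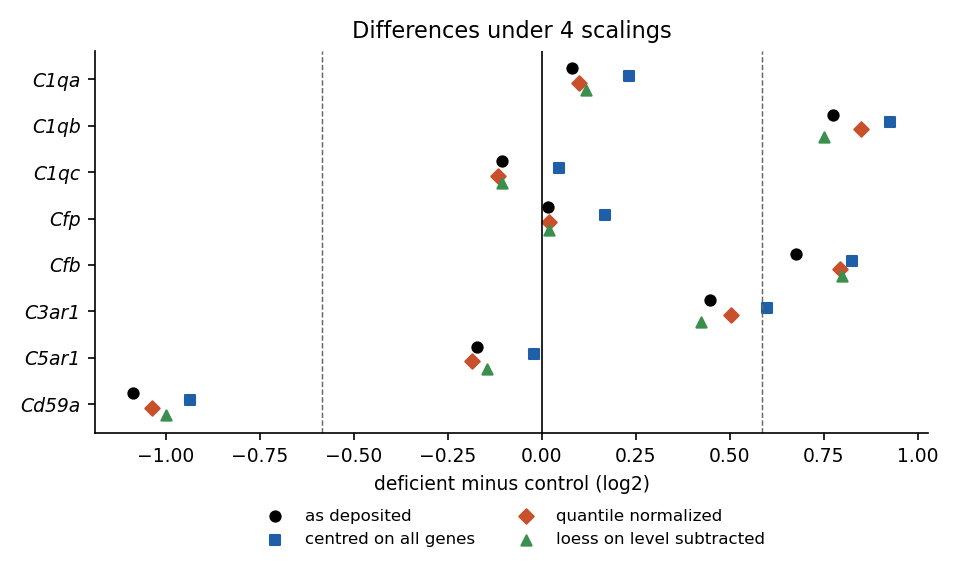
Difference between arrays (deficient minus control, log2, horizontal axis) of 8 complement genes under 4 scalings, shown by marker shape, with dashed lines at 1.5-fold. C1qb, Cd59a and Cfb (as deposited below the floor) lie past the lines in each scaling, C3ar1 crosses at 0.60 when centred, and C1qa, C1qc, Cfp and C5ar1 stay inside.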

How the data were processed

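Total RNA of 2 samples (1 control, 1 beta-catenin deficient) was biotin-labelled and run on Affymetrix 1.0 ST arrays, per the labels. The deposited values are on a log2 scale, judged from their range of 2.12 to 14.1, and were made by the authors with RMA, per the submitters' processing notes; the sources used here give neither its version and settings nor whether both columns came from 1 run. No depth exists for arrays, and their number limits the precision. Of 25917 rows, 21632 had 1 symbol in GEO's platform annotation, 1560 several and 2725 none. The Entrez IDs of 21537 rows matched RefSeq (GRCm38.p6), and 0 symbols changed. Of the members, 7 had a promoter window in RefSeq's table.

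Differences, counts and medians were computed with Python 3.11.15, pandas 2.3.3 and statsmodels 0.14.6 (loess span 0.3) and tested on simulated data. The members and lists were chosen with earlier results of these data known, and the motifs after the values were seen. Named genes were the members, genes of the wider list past 1.5-fold or closest to it, their partners and neighbours, and the 2 highest and 2 lowest of each marker list. Alternatives were other floors, centring, quantile normalization, loess, the mean of all rows of a gene and 2-fold. No test was possible.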

Additional observations from a re-analysis of the deposited data

How the results depend on the processing

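Each group had 1 array, so no replicate could be left out. No paired analysis was possible because each group had 1 sample and the labels carry no replicate number. As deposited, 1 member was counted as higher. There were 2 without a floor and after quantile normalization (Cfb joined), 2 when centred (C3ar1 joined) and 0 at 2-fold. At 2-fold C1qb, at 0.78, no longer counts. Over all genes under the same setting, the shares higher were 7.54% as deposited, 4.98% without a floor, 8.88% quantile normalized, 11.5% centred and 2.96% at 2-fold. The 1 lower member, Cd59a, was lower under each alternative that could change it. The members' median stayed between 0.02 and 0.17. In the wider list of complement genes, without a floor 11 were higher, 7 lower and 36 within 1.5-fold. Without a floor 4.98% of all genes were higher and 13.0% lower. In the wider list 8 were higher after quantile normalization or loess and 9 when centred, beside shares of 8.88%, 9.41% and 11.5%. With the floor at the 75th percentile (9.07) 3 were higher, a setting for which no background share was computed. At 2-fold 1 was lower, where 1.59% of all genes at the floor were lower. The median of the wider list ranged from 0.01 without a floor to 0.34 when centred. Signs turned for C1qc (0.045 centred), Itgam (0.11 centred) and C5ar2 (0.14 centred, 0.036 quantile normalized, 0.077 after loess). Each gene of the members and of the wider list that had a row with its symbol alone had a single such row. Taking the mean of a gene's rows could thus change none of these values and shows nothing about them. Rows with several symbols, such as those of Itgam and C1ra, were not part of that mean. RMA values give no signal over background, so the dim genes are limited by a floor that is a convention.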

Other observations

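Several complement genes have a neighbour in the genome whose values differ from their own. Timp1, an inhibitor of matrix metalloproteases that lies before Cfp on chromosome X in the RefSeq table, was 10.9 in control and 11.9 in the array labelled deficient, a difference of 1.01, while Cfp differed by 0.02 and Elk1, on its other side, by 0.24. Nelfe, next to Cfb on chromosome 17, was 8.44 in control and 8.13 in the other array (-0.31), against 0.68 for Cfb. Foxj2 and Necap1, which flank C3ar1 on chromosome 6, differed by -0.32 and 0.16, against 0.45. Ccdc9, on the side of C5ar1 away from C5ar2, differed by -0.02. A930018P22Rik, after Cd59a on chromosome 2, was below the floor in both arrays and differed by -0.01. Around C3, which was not analysed here, Tnfsf14 (0.24, below the floor) and Trip10 (0.38) were the nearest measured genes.

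A row annotated with both C1rb and C1ra, left out of the counts because it carries 2 symbols, was 7.26 in control and 8.14 in the array labelled deficient, a difference of 0.88. C1s2, a paralog of C1s1 that was below the floor in both arrays, was 4.90 in control and 6.93 in the other array (2.02). Among 30 genes of the wider list below the floor, the differences ran from -1.49 to 2.02. In the dimmest stretch of the table, at mean levels from 4 to 5, 37.7% of 1366 genes were lower by 1.5-fold or more and 1.32% were higher.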
